A study of Mus musculus with 8 samples.

Results

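Rgs5-expressing perivascular cells were examined in 8 large B16F10 melanomas, 4 grown in Atf4wt/wt mice and 4 in Atf4D/D mice. A cell barcode was counted as a member when Rgs5, Kcnj8 and Notch3 together had at least 3 unique molecular identifiers (UMIs, each standing for 1 captured transcript) and Col1a1, Col1a2 and Col3a1 together had at least 1. Barcodes had to hold 200 to 5000 genes, at most 7.5% mitochondrial UMIs and less than 0.3% UMIs of the pigment genes Mlana, Pmel, Dct, Tyr and Tyrp1. By this rule 53 of 28411 kept barcodes were members, out of 41925 deposited. Of these, 37 came from Atf4wt/wt tumours and 16 from Atf4D/D tumours.

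B16F10 is a melanoma line of C57BL/6 origin, and its cells were injected under the skin of the flank, so that the melanoma cells kept Atf4 in both groups. All hosts were C57BL/6 mice, labelled as 12 weeks old, that carried Rosa26::CreERT2, a tamoxifen-dependent Cre expressed in most cell types, and received tamoxifen by gavage. Atf4wt/wt mice had no loxP sites in Atf4, whereas tamoxifen removed exons 2 and 3 of the floxed gene in Atf4D/D mice, so that the deletion was not limited to perivascular cells. Each tumour gave 1 library of 3′ single-cell RNA-seq, with 37283598 to 74942137 UMIs per library over all deposited barcodes. The Atf4wt/wt libraries went against their sex labels. Xist, the RNA of the inactive X chromosome, reached 446 and 406 counts per 1000000 UMIs (CPM) in collagen-bearing barcodes of replicates 1 and 3, which are labelled male, and was at 0 in replicates 2 and 4, which are labelled female. Ddx3y, on the Y chromosome, was at 121 and 51 CPM in replicates 2 and 4 and at 0 in replicates 1 and 3. The sex labels were used in no main fit, but as a covariate in an alternative to each of the 2 gene tests.

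Pericytes and vascular smooth muscle cells, together called mural cells, wrap the endothelial tube. Pericytes sit in the basement membrane of capillaries and are held there by PDGF-B from endothelium acting on PDGFRB, while NOTCH3 maintains their identity. Smooth muscle cells of larger vessels carry more contractile protein and set vessel diameter. Perivascular cancer-associated fibroblasts (CAFs) share several of these genes, but fibroblasts also make decorin, lumican and fibrillar collagens and carry PDGFRA. ATF4 is the transcription factor of the integrated stress response, which turns on amino acid synthesis and transport.

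Selection rested on 3 mural genes. Rgs5 (chr1:169655501-169695813, plus strand) encodes a regulator of G protein signalling and was found in 52 of 53 members, with a median of 8 and a maximum of 37 UMIs. Kcnj8 (chr6:142564837-142571614, minus strand) encodes the pore of a vascular ATP-sensitive potassium channel and was found in 31 members. Notch3 (chr17:32120820-32166852, minus strand) encodes the mural Notch receptor and was found in 40. These coordinates and those below refer to GRCm38. All 3 genes were found in 21 members, and 51 had at least 3 UMIs of Rgs5 alone. Mural UMIs ran from 3 to 44 with a median of 12. A single member was at the limit of 3, 2 had 4, and 50 had 5 or more. Just outside, 5 low-pigment barcodes with collagen had 2 mural UMIs and 28 had 1. For collagen, 3 members had 1 UMI, and 2 low-pigment barcodes with enough mural UMIs had none. These values made the selection and are given as a description.

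Members held 909 to 7728 UMIs (median 2881) and 628 to 2909 genes (median 1438), with a median mitochondrial share of 4.59%. They were compared with the 546 other collagen-bearing barcodes, which had at least 10 collagen UMIs, were not members and had a median of 4613 UMIs and a mitochondrial share of 2.71%. Collagen was much lower in members, with a median of 14 UMIs against 156.5, and both medians follow in part from the rules. Of 41725 distinct barcode sequences deposited, 199 occurred in more than 1 library, and none of these was a member. Genes that the rule did not use describe what these barcodes held.

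Several pericyte genes were present, while others of the list were rare or absent. P2ry14 had 0 UMIs in members, Anpep 3, Vtn 4 and Tbx18 6. Pdgfrb, the PDGF-B receptor, was found in 42 of 53 members, and Cspg4, the NG2 proteoglycan, in 28. Des (chr1:75360329-75368579, plus strand), the intermediate filament desmin, was found in 31 and Acta2 (chr19:34241090-34255590, minus strand), smooth muscle actin, in 47, with a median of 11 and a maximum of 66 UMIs. At least 1 of Des and Acta2 was found in 50. After each barcode of at least 2000 UMIs was thinned to that number, Acta2 was found in 91.7% of 36 members, 23.3% of 503 other collagen-bearing barcodes and 1.69% of 237 immune-marker barcodes (at least 3 UMIs of Ptprc, Tyrobp and Lyz2), which should lack it. Without thinning the shares were 88.7%, 36.1% and 1.16%, at median depths of 2881, 4613 and 1610 UMIs. Des was found in 52.8%, 1.79% and none of the thinned barcodes in the same order.

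The 3 listed fibroblast markers, Pdgfra, Dcn and Lum, were at or near 0. Pdgfra had 0 UMIs in 53 members, which allows up to 17.0 CPM, and Dcn, which encodes the collagen-binding proteoglycan decorin, was found in 3 members and Lum (lumican) in 1. In other collagen-bearing barcodes Dcn was at 2602 CPM and Pdgfra at 192 CPM. Other genes of fibroblasts and CAFs were present. Thy1, a surface protein shared by fibroblasts and mural cells, was at 662 CPM in members and Cd248 (endosialin), found on pericytes and CAFs, at 724 CPM against 266 in other collagen-bearing barcodes. Fap, a protease used as a CAF marker, had 9 UMIs in 7 members, or 50.9 CPM against 50.5, and the matrix genes Postn (periostin) and Fbn1 (fibrillin 1) were at 854 and 430 CPM against 1799 and 1147. The choice of Fap, Postn and Fbn1 was made after seeing their values. The markers thus did not settle whether CAF describes these barcodes. Among smooth muscle markers, Myh11, the smooth muscle myosin heavy chain, had 44 UMIs in members and 0 in other collagen-bearing barcodes, whereas Cnn1 (calponin) had 1 UMI. The members are called Rgs5-positive perivascular barcodes here, although 1 of them had no Rgs5. Blood markers were almost absent, with 1 immune UMI (C1qb) among all members and no erythroid UMI.

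**Figure D1:**
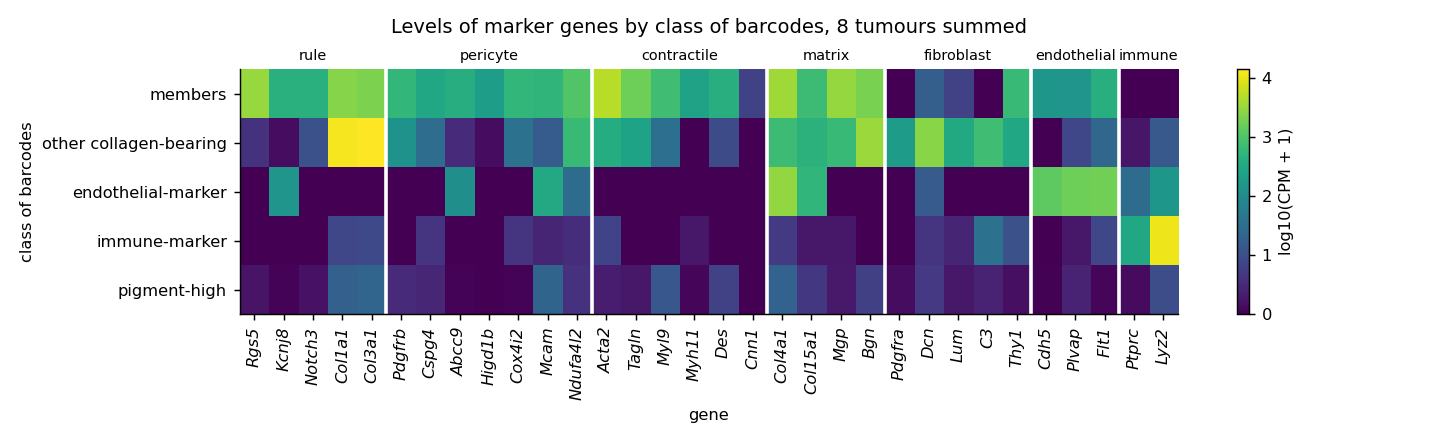
Level of each marker gene (horizontal axis, grouped by list) in 5 classes of barcodes (vertical axis), as log10 of CPM plus 1 from UMIs summed over the 8 tumours. Members combine bright mural and contractile genes with dark fibroblast genes such as Pdgfra (0 UMIs) and Dcn (16.97 CPM), and they also show Cdh5, Plvap and Flt1.

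Endothelial transcripts were concentrated in a few members. The 10 endothelial markers had 188 UMIs in members, 1064 CPM, of which Flt1 (VEGF receptor 1) gave 71. The list was at 48.7 CPM in other collagen-bearing barcodes. There were 4 members with 10 or more endothelial UMIs. Those from Atf4wt/wt replicate 1 had 41 and 63, and that from replicate 3 had 46, and these 3 had 0, 1 and 2 Acta2 UMIs and 1, 10 and 1 collagen UMIs, respectively. The other barcode, from Atf4D/D replicate 4, had 10 endothelial UMIs with 66 of Acta2 and 129 of collagen, and was the member without Rgs5. Whether these barcodes held 1 cell or 2 was not tested, and values without them are given where they matter. Kcnj8 and Abcc9 were also found in the 25 endothelial-marker barcodes (10 and 8 UMIs), from which the rule had taken any barcode with enough mural and collagen UMIs.

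The number of members varied strongly between tumours. In Atf4wt/wt tumours 8 of 5576, 17 of 3075, 2 of 2709 and 10 of 3407 kept barcodes were members, shares of 0.143%, 0.553%, 0.0738% and 0.294%. In Atf4D/D tumours there were 1 of 2946, 0 of 3568, 1 of 3710 and 14 of 3420, shares of 0.0339%, 0 (which allows up to 0.0841%), 0.0270% and 0.409%. Atf4D/D replicate 4 exceeded 3 of the 4 Atf4wt/wt tumours, so that the groups overlapped. The observed shares of the other Atf4D/D tumours were below all Atf4wt/wt values, although the limit for replicate 2 lies above Atf4wt/wt replicate 3. The mean was 0.266% ± 0.212 (SD, n = 4) against 0.118% ± 0.195 (SD, n = 4), a difference of -0.148 percentage points (exact two-sided permutation test, p = 0.314, smallest possible p 0.0286). Without Atf4D/D replicate 4 the difference was -0.246 (exact permutation p = 0.0857), and without Atf4wt/wt replicate 2 it was -0.0527 (exact permutation p = 0.657).

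Among collagen-bearing barcodes, members made up 13.8%, 39.5%, 3.70% and 16.7% in Atf4wt/wt tumours and 1.01%, 0 (up to 4.05%), 11.1% and 6.93% in Atf4D/D tumours. Replicate 3 of Atf4wt/wt lay within the Atf4D/D range, and the other 3 lay above it. The 11.1% was 1 of 9 barcodes, with an exact 95% binomial interval of 0.281 to 48.2%. The means were 18.4% ± 15.1 and 4.76% ± 5.22 (SD, n = 4 each), a difference of -13.7 points (exact two-sided permutation p = 0.114, and 0.229 after Benjamini-Hochberg adjustment over the 2 shares, against 0.314 for the share of kept barcodes). Members needed 1 collagen UMI and the other barcodes of this denominator 10. With at least 10 for members too, the means were 11.02% and 4.39%, a difference of -6.63 points (exact permutation p = 0.286). Without Atf4wt/wt replicate 3 the exact permutation p was 0.0286, the smallest possible over 35 assignments. That value follows from leaving out the only Atf4wt/wt tumour within the Atf4D/D range. Without replicate 2 the difference was -6.62. Neither share passed the test with all 8 tumours. Intervals and floors here cover counting error only.

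**Figure D2:**
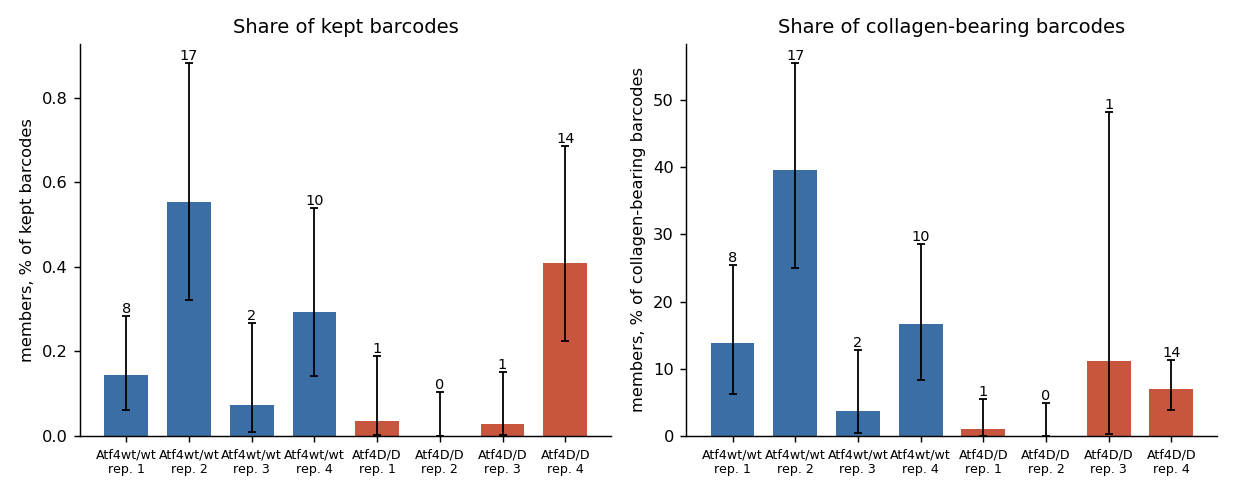
Members as a percentage of kept barcodes (left) and of collagen-bearing barcodes (right) in each tumour, with exact 95% binomial intervals and the number of members above each bar. Atf4wt/wt replicate 2 (17 members) and Atf4D/D replicate 4 (14 members) stand highest among kept barcodes, and the groups overlap in both panels.

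Levels were compared within tumours that had at least 5 members, namely Atf4wt/wt replicates 1, 2 and 4 and Atf4D/D replicate 4. UMIs were summed per tumour and class, and the log2 ratio of CPM with 1 added was averaged over the 4 tumours. This contrast was made by the rule and carries no test. Of 9558 genes with at least 10 UMIs, 470 (4.92%) were higher in members in all 4 tumours with a mean log2 ratio of at least 1, and 1189 (12.4%) were lower to the same degree. The median over all genes was -0.76. Members had 163749 UMIs in these tumours against 1577829 in the other class, and 878 of the 1189 lower genes had at most 3 member UMIs. A gene at 0 is therefore given as a bound from a floor of 3 UMIs over the 4 tumours, and with that floor in both classes the median of all genes was 0.39. These shares and medians over all genes are the reference for each list below, unless another setting is named.

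Pericyte identity genes stood high. Of 18 listed genes 16 could be compared. Of these, 13 were higher and none lower to the degree used, with a median log2 ratio of 2.29, or 2.89 with the floor. Anpep, with 3 UMIs against 41, was lower in 3 of the 4 tumours (mean log2 ratio -1.72). Higd1b, a mitochondrial protein gene used as a pericyte marker, had 37 UMIs in members of the 4 tumours and 0 in other collagen-bearing barcodes, at least 119-fold higher. Abcc9 encodes the regulatory partner of the Kcnj8 channel and was at 551, 483, 196 and 323 CPM in Atf4wt/wt replicates 1, 2 and 4 and Atf4D/D replicate 4, with 0, 17.4, 0 and 2.80 in the other class. All 4 member values exceeded all 4 others. Pdgfrb was at 381, 516, 556 and 647 CPM against 133, 338, 86.4 and 85.9, and again the classes did not overlap (mean log2 ratio 1.92). Cox4i2, a cytochrome c oxidase subunit, and Cspg4 had ratios of 4.54 and 2.61. Ndufa4l2, a mitochondrial protein induced by low oxygen, was higher in all 4 tumours by a mean of 0.55 and did not reach the fold used.

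Contractile genes were high as well. Of 13 compared, 9 were higher and none lower (median 3.14, or 3.86 with the floor). Acta2 was at 2754, 5925, 5856 and 4950 CPM in members against 430, 564, 869 and 223 CPM, a mean log2 ratio of 3.32. Each member value was over every value of the other class. Myl9, the regulatory myosin light chain, had a ratio of 4.31, Tagln (transgelin, an actin-binding protein) 2.63, and Mylk, the kinase that activates the light chain, 5.35. Ppp1r14a, an inhibitor of myosin phosphatase, had 60 UMIs against 2. Myh11 was at least 138-fold higher. Without members that had 2 or more UMIs of endothelial, immune or erythroid genes, 8 of 12 were higher, with a median of 1.84. Over all genes that setting gave 375 higher and 1349 lower of 9332, with a median of -1.30.

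Because contractile genes stood high together, the promoters of 2 that held a searched motif are shown. The 250 bases before the RefSeq transcription start are given 5′ to 3′ on the strand of the gene (GRCm38.p6). The Acta2 window lies at chr19:34255374-34255623 on the minus strand, and its capitals mark TGGGAA, a motif read by the Notch effector RBPJ, beginning 27 bases before the start. The Myl9 window lies at chr2:156775214-156775463 on the plus strand, and its capitals mark a CArG box, the element bound by serum response factor, beginning 161 bases before the start.
Acta2: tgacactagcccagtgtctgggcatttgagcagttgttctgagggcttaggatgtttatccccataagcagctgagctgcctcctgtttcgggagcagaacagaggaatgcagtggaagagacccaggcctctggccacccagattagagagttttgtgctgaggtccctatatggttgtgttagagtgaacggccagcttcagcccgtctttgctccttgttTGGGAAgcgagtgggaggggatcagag
Myl9: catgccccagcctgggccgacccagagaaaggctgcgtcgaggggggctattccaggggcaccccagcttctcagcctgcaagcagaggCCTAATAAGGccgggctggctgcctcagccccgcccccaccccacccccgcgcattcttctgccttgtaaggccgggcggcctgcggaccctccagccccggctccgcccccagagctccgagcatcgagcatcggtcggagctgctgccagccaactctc
Both strands of windows from 250 bases before to 50 after the start were searched, and the 2 motifs share no full match. A strict CArG box occurred in 1.63% of 32851 RefSeq promoters, in 1 of 15 contractile genes and in none of 13 pericyte genes. TGGGAA occurred in 25.6% of all promoters, 4 of 15 contractile genes and 6 of 13 pericyte genes. Looser forms of the CArG box were not searched, so that the Acta2 window is not shown to lack one. These matches describe letters in the windows and are no evidence of binding.

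Of 13 vasoactive genes compared, 4 were higher and 1 lower, with a median of 1.74 (2.68 with the floor), and without members bearing other-type markers 6 of 12 were higher. Gucy1a1 and Gucy1b1, the subunits of the nitric oxide receptor guanylate cyclase, had ratios of 5.30 and 4.74. The lower one was Rgs2, of the same family as Rgs5, with 0 member UMIs in these tumours and a level at least 5.05-fold higher in the other class. Among 11 PDGF and Notch genes, 5 were higher and 2 lower (median 0.73, or 0.92 with the floor). Nrarp, a target and inhibitor of Notch signalling, had 10 UMIs against 1, Notch1 a ratio of 2.06 and the ligand gene Pdgfa 2.50, whereas Pdgfra and Pdgfc were lower. Without members bearing other-type markers the counts were 3 higher and 3 lower and the median was -0.77. The median over all genes in that setting was -1.30.

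Of 18 VEGF, angiopoietin and TGF-beta genes, 2 were higher and 6 lower. The median was -0.20 and turned to 0.30 with the floor, against -0.76 and 0.39 over all genes. Angpt2, a vessel-destabilising ligand of TIE2 made by endothelium and mural cells, had 30 member UMIs against 3. Over all tumours 15 of its 31 member UMIs lay in the 4 barcodes rich in endothelial UMIs, and a single barcode held 12. The Angpt2 level in members was 175 CPM with and 106 CPM without those 4, and 401 CPM in endothelial-marker barcodes. Eng, a TGF-beta co-receptor, had a ratio of 1.64. Vegfa, the main endothelial growth factor, had 3 UMIs in members of these tumours and 523 in the other class.

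Matrix genes were divided into basement membrane and interstitial matrix. Of 15 basement membrane genes, 5 were higher and 1 lower (median 0.20, or 0.33 with the floor, against 0.39 for all genes), and without members bearing other-type markers 4 were higher and 2 lower. Col4a1, a type IV collagen chain, was at 3051, 2946, 3337 and 4869 CPM in members against 712, 1024, 452 and 598 CPM. The classes did not overlap, and the mean log2 ratio was 2.38. Col4a2, its partner chain, had a ratio of 2.22, Col18a1 3.44 and Nid2 (nidogen 2) 2.57, while Sparc, a collagen-binding glycoprotein, was at -0.18. These levels were not particular to members. In the 25 endothelial-marker barcodes Col4a1 was at 3033 CPM, within the range of the 4 member values, Col4a2 at 1960 and Col18a1 at 715 CPM. The whole list was at 18726 CPM there, 18037 CPM in all members and 14508 CPM in other collagen-bearing barcodes. Of 16 interstitial matrix genes, 1 was higher and 8 lower (median -1.13, or -0.89 with the floor). The higher gene was Mgp, matrix Gla protein, an inhibitor of calcification, with a ratio of 1.93. Fn1 (fibronectin) was at -1.46, and Tnc (tenascin C) had 19 member UMIs against 2509.

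Genes of matrix and adventitial fibroblasts were low as a group. None of 18 was higher and 14 were lower, with a median of -6.35, or -2.78 with the floor, and 11 of the 18 had at most 3 member UMIs. The acute-phase gene Saa3 had 0 UMIs in members and 3419 in the other class, at least 118-fold higher there. Complement C3 was at least 37.4-fold and Ptgs2, the inducible cyclooxygenase, at least 35.0-fold higher in the other class. Dcn had 2 UMIs against 4127. Collagen processing genes were also lower, 10 of 16 with none higher (median -2.77, or -1.11 with the floor). Lysyl hydroxylase Plod2 had 5 UMIs against 448, whereas Serpinh1, the collagen chaperone HSP47, was at -0.18.

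**Figure D3:**
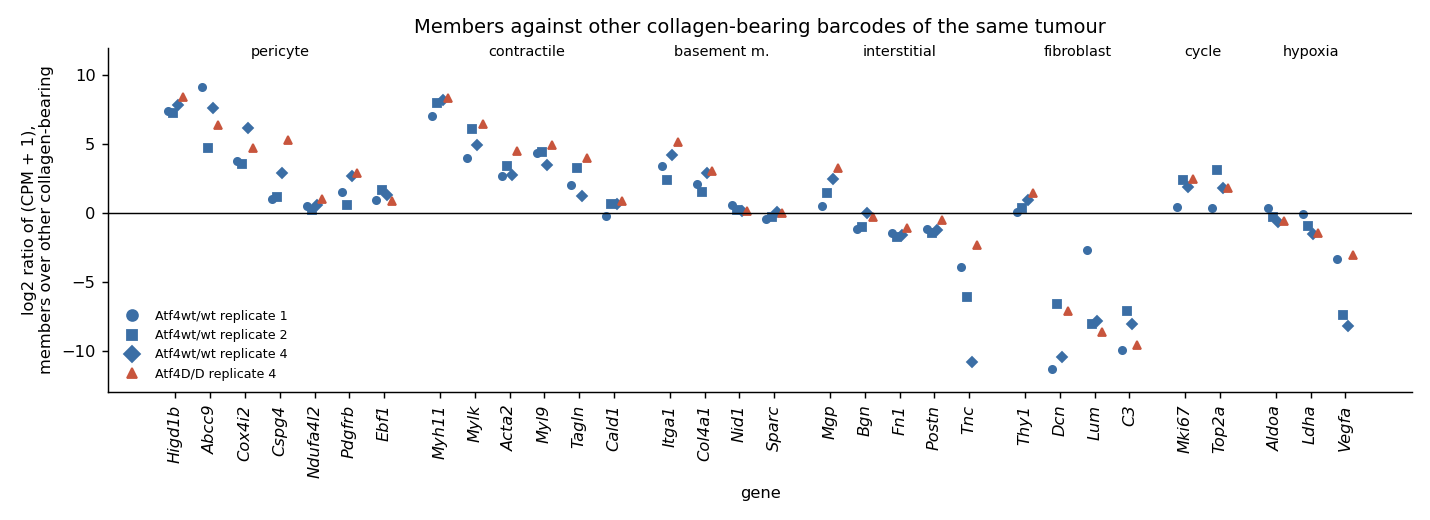
Log2 ratio of CPM plus 1 in members over other collagen-bearing barcodes (vertical axis) for named genes grouped by list (horizontal axis), 1 symbol for each of the 4 tumours with at least 5 members. Pericyte and contractile genes such as Higd1b, Myh11 and Acta2 lie above 0 in all 4 tumours and Dcn and C3 lie below, and points for genes without UMIs in 1 class depend on the 1 CPM added.

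The remaining lists covered stress, growth and inflammation. Beside them, 4.92% of all 9558 genes were higher and 12.4% lower, with a median of -0.76, or 0.39 with the floor. Of 27 ATF4 target genes, none was higher and 7 were lower. Their median of -1.74 became -0.19 with the floor, and 11 of them had at most 3 member UMIs. Nupr1, a stress-induced chromatin protein, had 8 UMIs against 359. Of 12 unfolded protein response genes 3 were lower (median -0.58, or -0.27 with the floor), of 14 hypoxia genes 5 (-1.72, or -1.38) and of 7 interferon genes 2 (-1.62, or -1.12), with none higher in these lists. Without members bearing other-type markers, 8 of 14 hypoxia genes were lower (median -2.85) and 5 of 7 interferon genes (median -3.21). Over all genes 1349 of 9332 were lower in that setting, with a median of -1.30. Of 9 chemokine and cytokine genes 6 were lower (-2.03, or -1.76), or 4 without members bearing other-type markers, among the 6 Ccl2, a chemokine that acts on monocytes, at -2.35. Of 9 immediate early genes, 1 was higher, Atf3 at 1.74, and 0 were higher without members bearing other-type markers.

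Cell cycle genes were higher in members, 7 of 10 with none lower (median 1.68, or 1.72 with the floor). Mki67, a marker of cycling cells, was at 127, 366, 491 and 303 CPM against 92.2, 69.4, 132 and 55.1 CPM in the 4 tumours. Atf4wt/wt replicate 1 fell within the range of the other class and the other 3 tumours lay above it. The 10 genes summed to 1737 CPM in all members and 532 CPM in other collagen-bearing barcodes. By tumour the sums were 720, 2147, 128 and 2421 CPM in Atf4wt/wt members against 487, 391, 761 and 884 CPM. In Atf4D/D replicates 1, 3 and 4 they were 0, 438 and 1717 CPM against 347, 533 and 454 CPM. Members were higher in the 4 tumours with at least 5 of them and lower in the 3 with 1 or 2. At least 5 cell cycle UMIs were found in 15 of 53 members, namely 1 of 8, 5 of 17, 0 of 2 and 5 of 10 in Atf4wt/wt tumours and 4 of 14 in Atf4D/D replicate 4, with none in the single members of replicates 1 and 3. In barcodes thinned to 2000 UMIs, Mki67 was found in 30.6% of members, 8.95% of other collagen-bearing barcodes and 21.3% of barcodes over the pigment limit. The part of RNA from melanoma cells in this was not tested, and members had a median of 0.0533% pigment UMIs, against 0.0491% in other collagen-bearing barcodes.

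By size alone, the genes with the highest ratios after the rule genes Rgs5 (8.81) and Kcnj8 (73 UMIs against 1) included Fabp4, a fatty acid binding protein, at 7.73. Dlk1, a Notch-family ligand, had 31 UMIs against 1, the adhesion molecule Esam 42 against 2 and Gja4, a connexin of vessel walls, 28 against 2. Some of these are also endothelial genes. Fabp4 had 515 UMIs in members, of which 75 lay in the 4 barcodes rich in endothelial UMIs, and it was found in 32 of the other 49 members. Esam was found in 21 and Gja4 in 19 of those 49. Over all genes, leaving out these 4 members gave 397 higher and 1391 lower. The study compiled from earlier work a vascular CAF list and a mural list, and 14 of 21 and 28 of 39 of their genes were higher, with 1 and 0 lower. Of 22 matrix CAF genes 19 were lower and none higher. These lists overlap with those above.

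Variation among members was described along Acta2. Per barcode, Acta2 and Tagln had a Spearman correlation of 0.79 over 53 members, whereas Acta2 and Rgs5 stood at -0.11 and Acta2 and Kcnj8 at -0.35. Without the 4 barcodes rich in endothelial UMIs the values were 0.76, -0.23 and -0.34. Barcodes of 1 tumour share a library, and counts are low, so that these values are descriptions. The 49 members were then divided at the median Acta2 level into 24 with more and 25 with less. Both groups held members of Atf4wt/wt replicates 1 (3 and 3), 2 (8 and 9) and 4 (4 and 6) and of Atf4D/D replicate 4 (6 and 7), while the single members left from Atf4wt/wt replicate 3 and Atf4D/D replicates 1 and 3 all fell in the upper group.

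With Acta2 at 8566 against 2257 CPM by construction, the upper group had 2657 against 657 CPM of Tagln, 1238 against 465 of Myl9, 890 against 383 of Mylk and 348 against 178 of Myh11. Of 11 contractile genes besides Acta2 with at least 10 UMIs, 9 were at least 1.5-fold higher in the upper group, whereas Cald1 (caldesmon) was at 2425 against 2011 CPM and Smtn (smoothelin) at 77.4 against 82.1. Outside the list, Ccl2 was at 413 against 95.7 CPM (32 and 7 UMIs) and Flt1 at 271 against 13.7 (21 and 1 UMIs). Cxcl10 was at 51.6 against 274 CPM (4 and 20 UMIs) and Mki67 at 258 against 479, whereas Cenpf was at 348 against 219. Smtn, Flt1, Cxcl10, Mki67 and Cenpf were named after seeing their values. The channel genes were lower in the upper group, with Kcnj8 at 310 against 657 CPM and Abcc9 at 310 against 547. Cspg4 was at 232 against 438 CPM. Pdgfrb (632 and 643 CPM), Rgs5 (3457 and 4090) and Mgp (2903 and 3173) differed little in proportion. No test was made, since the division used the same counts.

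**Figure D4:**
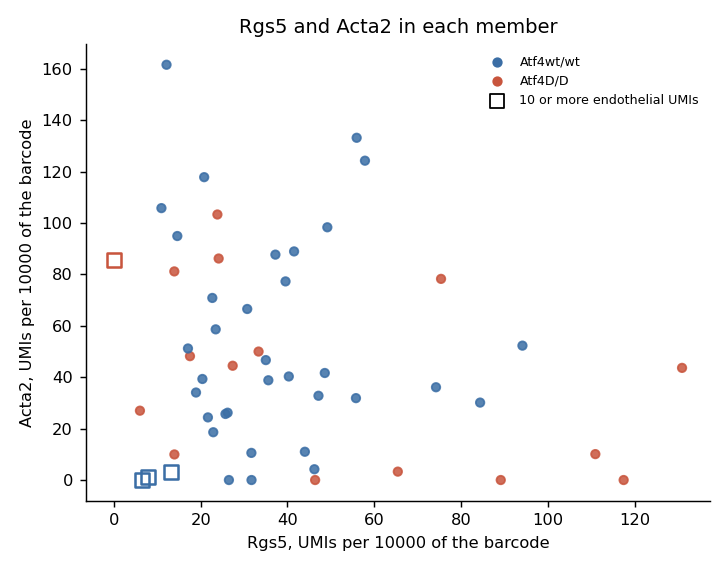
Rgs5 (horizontal axis) and Acta2 (vertical axis) in UMIs per 10000 of the barcode, 1 point per member, coloured by host genotype, with squares for the 4 members that had 10 or more endothelial UMIs. Members of both genotypes spread over both axes without a common trend (Spearman correlation -0.11 over 53 members).

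Host genotype was first checked with Atf4 (chr15:80255184-80257541, plus strand). Its 3 exons include exon 2 (80256207 to 80256521) and the last exon, exon 3 (80256634 to 80257541), both inside the deleted segment, and 3′ reads fall mainly in the last exon. Members of Atf4wt/wt tumours had 5, 11, 4 and 7 Atf4 UMIs, or 212, 183, 512 and 229 CPM. Those of Atf4D/D replicates 1, 3 and 4 had 0, 0 and 1 UMI, or 0, 0 and 20.2 CPM. Replicates 1 and 3 were single members of 2900 and 2282 UMIs, in which 0 allows up to 1034 and 1315 CPM, above every Atf4wt/wt value, so that the comparison in members rested on replicate 4, where 10.9 UMIs would stand at the pooled Atf4wt/wt level. Atf4 was too low for the filter, and in a fit without a filter its log2 fold change was -3.00 (SE 1.21, adjusted p = 0.890 by edgeR quasi-likelihood test with Benjamini-Hochberg adjustment, unadjusted p = 0.0133). In other collagen-bearing barcodes Atf4 was at 313, 312, 280 and 274 CPM in Atf4wt/wt tumours and 120, 90.7, 148 and 47.6 CPM in Atf4D/D tumours, without overlap.

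Genotypes were compared in members over 997 genes in the 4 tumours with at least 5 members, so that Atf4D/D was represented by replicate 4 alone, which is assumed to vary like the Atf4wt/wt tumours. A total of 2 genes (0.201%) passed an adjusted p of 0.05 by edgeR quasi-likelihood test, 42 had an unadjusted p below 0.05, and DESeq2 called 0 with 10 below 0.05. The first was Igfbp3, a binding protein for insulin-like growth factors. It had 110 UMIs in Atf4wt/wt replicate 1 and 70 in replicate 3 and 0 in every other tumour. All 180 UMIs lay in the 3 Atf4wt/wt members rich in endothelial UMIs, with 44, 66 and 70 each. Against the floor, Atf4wt/wt was at least 15.9-fold higher over the tumours fitted (adjusted p = 1.00e-11, edgeR quasi-likelihood test), and without those members no Igfbp3 UMI was left. The call was also lost without Atf4wt/wt replicate 4 (adjusted p = 0.988) and with DESeq2 (0.162).

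The second was Ccnd1, cyclin D1. It was at 84.7, 399, 512 and 294 CPM in Atf4wt/wt members and at 0, 0 and 1030 CPM in Atf4D/D replicates 1, 3 and 4. The zeros came from single members, and replicate 4 exceeded every Atf4wt/wt tumour. Its log2 fold change was 1.89 (SE 0.47, adjusted p = 0.0291 by edgeR quasi-likelihood test with Benjamini-Hochberg adjustment). The call held in 5 of 16 alternatives. It was lost, among others, without members bearing other-type markers, without Atf4wt/wt replicate 1 or 4 and with DESeq2. The log2 fold change of Ccnd1 kept its direction, from 1.44 to 3.55 over the 16 alternatives against 1.89 in the main fit.

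Acta2 in members was at 2754, 5925, 2176 and 5856 CPM in Atf4wt/wt tumours and 8621, 4820 and 4950 CPM in Atf4D/D replicates 1, 3 and 4. The ranges overlapped. Its log2 fold change was 0.07 (SE 0.31, adjusted p = 0.998 by edgeR quasi-likelihood test), and alternatives ran from -0.59 to 0.84, so that neither a direction nor its absence was shown. Mgp was at 2119, 3029, 384 and 1603 CPM in Atf4wt/wt members and at 10000, 8764 and 4566 CPM in Atf4D/D members. All Atf4D/D values exceeded all Atf4wt/wt values, 2 of them from single barcodes. In Atf4D/D replicate 4, 1 barcode rich in endothelial UMIs held 94 Mgp UMIs. Without the 4 members rich in endothelial UMIs the genotypes overlapped. The fold change was 1.05 (SE 0.32) and did not pass the edgeR quasi-likelihood test. It was 0.25 without those 4 members. Over 17 alternatives it ran from 0.25 to 1.70, and 3 of them passed. Col6a1, a type VI collagen chain, was at 1059, 682, 384 and 1112 CPM in Atf4wt/wt members and at 1034, 1315 and 2344 CPM in Atf4D/D members, with overlap. Its fold change was 1.37 (adjusted p = 0.129, edgeR quasi-likelihood test), and it passed without those 4 members (1.33, adjusted p = 0.0227) and without Atf4wt/wt replicate 1 (1.44, adjusted p = 0.00144).

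Of 14 interstitial matrix genes tested between genotypes, all 14 had positive log2 fold changes, with a median of 0.83 against -0.01 over all 997 genes, and none passed. The Atf4D/D side was 1 tumour throughout, and without the 4 members rich in endothelial UMIs 11 of 13 were positive with a median of 0.36. Contractile genes had a median of 0.32 (9 of 10 positive), which became 0.0008 (5 of 10) without those members, with none called. Pericyte identity genes had a median of 0.40 (8 of 11 positive) and basement membrane genes 0.43 (8 of 12), also with none called, and these were 0.41 (8 of 11) and 0.55 (9 of 9) without those members. Only 2 of 28 listed ATF4 targets were abundant enough to test, with none called and a median of -0.50.

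Whether the genotype effect in members differed from that in other collagen-bearing barcodes was tested as an interaction with tumour as a block. A total of 7 of 2970 genes (0.236%) passed by edgeR quasi-likelihood test, 6 of them with a higher effect in members, 116 had an unadjusted p below 0.05, and DESeq2 called 0 with 16 below 0.05. Acta2 had a difference of 1.52 (SE 0.31, adjusted p = 0.00315) and Mgp 1.84 (SE 0.36, adjusted p = 0.00115), both log2. In the other class of the 4 tumours fitted, Acta2 stood at 430, 564 and 869 CPM in Atf4wt/wt and 223 CPM in Atf4D/D, while members stood at 2754, 5925 and 5856 CPM and at 4950 CPM. Replicate 3 of Atf4D/D, which was not fitted, had 3257 CPM in its 8 other collagen-bearing barcodes. Cspg4 (3.78), Tnc (3.05), Col6a3 (1.45) and Gm42418 (1.45), a gene model that overlaps ribosomal RNA sequence, also passed, as did Igfbp3. Without the 4 members rich in endothelial UMIs, Gm42418 was the only gene called, and Acta2 had an adjusted p of 0.0923 by edgeR quasi-likelihood test. Without Atf4wt/wt replicate 4 the calls of Acta2 and Tnc were lost. Those of Tnc, Cspg4 and Col6a3 were lost without replicate 2, and that of Col6a3 without replicate 1. The log2 differences themselves kept their direction when 1 Atf4wt/wt tumour was left out. They ran from 1.3998 to 1.91 for Acta2, 2.68 to 4.25 for Tnc, 3.57 to 4.22 for Cspg4 and 1.29 to 1.91 for Col6a3.

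**Figure D5:**
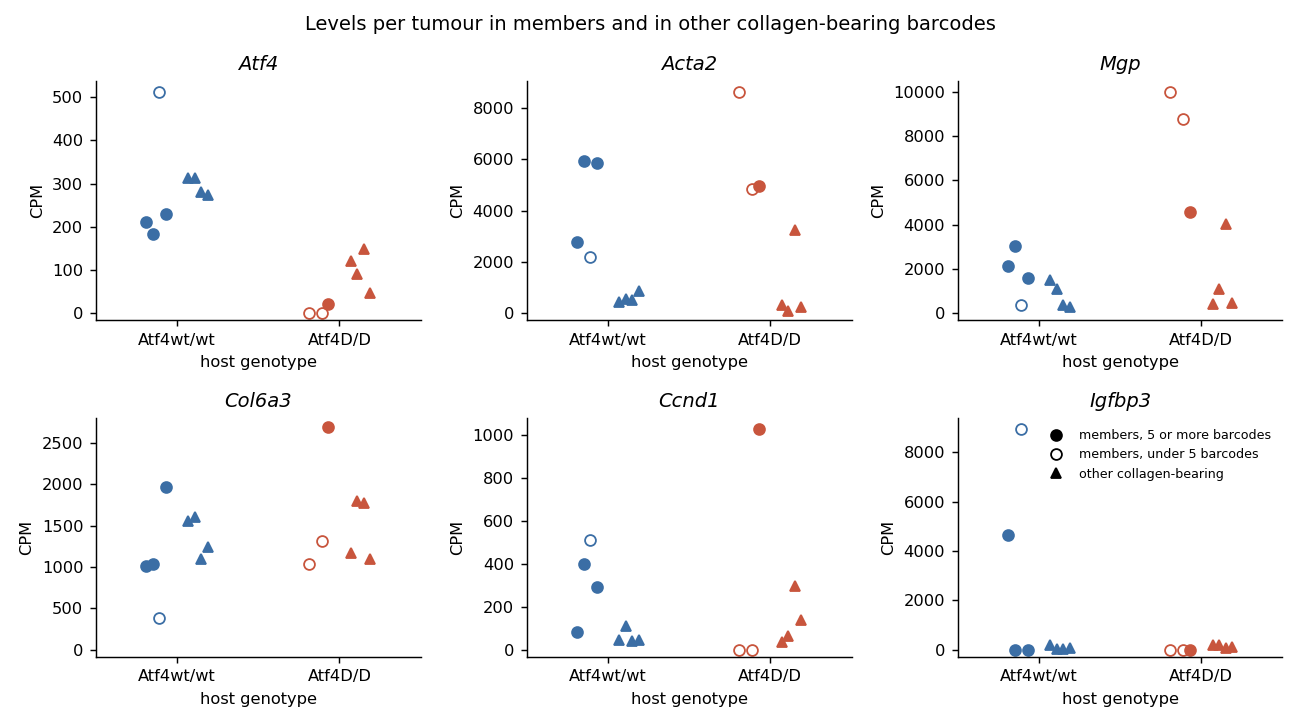
CPM of 6 genes (1 panel each, vertical axis) by host genotype (horizontal axis), 1 symbol per tumour, with circles for members (open where fewer than 5 barcodes) and triangles for other collagen-bearing barcodes. Atf4 does not overlap between genotypes in other collagen-bearing barcodes and is lower in the members of Atf4D/D replicate 4 (20.2 CPM) than in Atf4wt/wt members, the 2 open circles at 0 being single barcodes, Acta2 overlaps in both, and Igfbp3 is above 0 in members of 2 Atf4wt/wt tumours only.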

How the data were processed

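The single-cell libraries were prepared with a 10x Genomics 3′ V3 kit per the labels, and the submitters' processing notes name Cell Ranger 3.1.0, Seurat 3.2.1 and GRCm38. The authors deposited UMI counts that were not normalized, as 1 matrix per tumour, before their limits on genes and mitochondrial share. Barcodes were filtered and classed by UMI counts as described above, with no clustering and no doublet caller. Endothelial-marker barcodes had at least 3 UMIs of Pecam1, Cdh5 and Flt1, immune-marker barcodes at least 3 of Ptprc, Tyrobp and Lyz2, all with under 10 collagen UMIs.

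UMIs were summed per tumour and class, since cells are not replicates. Genotypes were compared with edgeR 4.0.16 (filterByExpr, TMM, quasi-likelihood test, R 4.3.3) in tumours with at least 5 members, with Benjamini-Hochberg adjustment over all genes tested, and DESeq2 1.42.0 was an alternative. Shares were compared by exact permutation over the 8 tumours. The labels call the replicates biological. Replicates differed by more than sampling noise, but separate libraries can do so too, so that this does not show whether the mice were separate. Named genes were the markers, genes past the threshold and the 10 smallest p per genotype test, the 4 most abundant and 3 most different genes of each list, and the 20 highest and 10 lowest ratios. The members, lists and tests were chosen with earlier results of these data known. Replicate numbers did not pair the tumours. In tests on simulated data, the comparison of genotypes in members (997 genes) recovered 42 of 94 genes changed 4-fold and 83 of 95 changed 8-fold with 5 false calls, and the interaction (2970 genes) recovered 17 of 88 and 36 of 88 with 1 false call. The simulated tumours of a class shared 1 mean profile, and all genes shared 1 dispersion. They held no separate library effect and no counts concentrated in a few barcodes. The simulation therefore cannot show how a fit with 1 Atf4D/D tumour performs on these data. Depth was 2282 to 60089 UMIs in the members of a tumour and 33772 to 1070664 in the other collagen-bearing barcodes.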

Additional observations from a re-analysis of the deposited data

Results flagged for a closer look

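In 30 groups of tumours examined for a value far from the rest, 4 were found, and chance gives about 1 in 20 groups. Atf4 in members of Atf4wt/wt replicate 3 was at 512 CPM, from 4 UMIs in 2 barcodes, and the distance to its neighbour was 0.86 of the range. The share of members among kept barcodes in Atf4D/D replicate 4 was 0.409%, at a distance of 0.917 of the range. In the other collagen-bearing barcodes of Atf4D/D replicate 3, of which there were 8, Acta2 was at 3257 CPM (0.927 of the range) and Cspg4 at 148 CPM (0.894 of the range).

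The interaction test of the genotype effect in members against that in other collagen-bearing barcodes passed for 7 genes, with log2 differences of 1.45 for Gm42418, 1.84 for Mgp, 1.52 for Acta2, -10.08 for Igfbp3, 3.78 for Cspg4, 3.05 for Tnc and 1.45 for Col6a3. Atf4D/D was 1 tumour in this fit, so that genotype and that library cannot be told apart. The count fell to 1 without the members rich in endothelial UMIs and to 0 without members bearing other-type markers or with DESeq2. The Igfbp3 value is no bound, since its count was 0 in members of Atf4D/D replicate 4.

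Outside the comparisons, 14 barcodes met the mural and collagen parts of the rule but held 0.3% or more pigment UMIs. They came to 1, 6, 0 and 1 in Atf4wt/wt tumours and 1, 1, 0 and 4 in Atf4D/D tumours. Their pigment share was 0.313 to 1.58% with a median of 1.18%, their mural UMIs ran from 5 to 24 with a median of 11, and 11 of them had Acta2.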

How the results depend on the processing

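Of 90 recomputed values of the comparisons, 64 kept their direction and their side of the threshold, 17 moved, 8 reversed (all of Acta2 between genotypes) and 1 passed the threshold. Of 266 for other named genes, 199 were kept, 50 no longer passed and 17 newly passed. Between genotypes in members, 2 genes were called. The count was 1 with at least 5 mural UMIs, with no collagen requirement, with at least 10 collagen UMIs and without the filter on low counts, 12 with pigment under 0.1%, 4 with at least 10 members per tumour, and 0 with every tumour that had a member, without members bearing 2 or more UMIs of other-type markers, with DESeq2 and with the sex label as a covariate. Leaving out 1 tumour gave 0 to 4. For the interaction, with 7 called, it was 0 without members bearing other-type markers, 0 with DESeq2, 2 without TMM, 11 with the sex label and 1 without the members rich in endothelial UMIs (an alternative chosen after seeing the data), and leaving out 1 tumour gave 5 to 7. Acta2 between genotypes in members turned from 0.07 to -0.0337 with at least 2 mural UMIs, -0.0181 with no collagen requirement, -0.10 with at least 10 collagen UMIs, -0.25 with pigment under 0.1%, -0.59 without members bearing other-type markers, -0.26 with at least 10 members per tumour and -0.40 without the members rich in endothelial UMIs, and ran from -0.26 to 0.23 when 1 tumour was left out. The cause was not tested. The difference in the share of collagen-bearing barcodes ran from -18.6 to -6.62 when 1 tumour was left out, and that of kept barcodes from -0.246 to -0.0527. With at least 10 collagen UMIs the former was -6.63 (exact permutation p = 0.286) and the latter -0.0363 (exact permutation p = 0.829), and with low-pigment barcodes as the denominator of the latter the means were 5.06% and 1.03% (exact permutation p = 0.0571). With replicate number as a block, the exact permutation p was 0.5 for the share of kept barcodes (difference -0.148) and 0.25 for that of collagen-bearing barcodes (difference -13.7), although same-numbered tumours did not deviate together (correlations 0.128, -0.0413, -0.0139 and 0.1). No paired analysis was possible for genes because the groups fitted share only replicate number 4. In the gene fits, leaving out Atf4D/D replicate 4 gave no value, and Atf4 was filtered out under the alternatives without a value. Members had 176743 UMIs in all, and 1 Atf4D/D tumour had at least 5 members.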
